A study of Mus musculus with 3 samples.

Results

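Snhg14 is a long noncoding RNA gene on mouse chromosome 7 whose introns hold long tandem arrays of the small nucleolar RNAs (snoRNAs) Snord116 and Snord115. Peaks of the histone variants TH2A and TH2B were placed on these arrays in mature caudal sperm. All peaks of both deposited lists were taken from 850 kb of chromosome 7 (GRCm38, mm10). This region begins just beyond the GENCODE 3′ end of Snhg14 (59307924) and ends just beyond the GENCODE 5′ end of Snrpn (60140219). In RefSeq, Snhg14 runs from 59272737 to 60450177, beyond the region at both ends. The region held 18 of 1389 peaks in all. Among them were 8 of 1179 TH2B peaks (0.679%, exact 95% interval 0.293 to 1.33%) and 10 of 210 TH2A peaks (4.76%, 2.31 to 8.58%). The region was chosen by the peak positions themselves, since it holds peaks of both lists, so these shares are a description.

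TH2A and TH2B are testis-specific variants of the core histones H2A and H2B, and some remain on sperm DNA after protamines have replaced most histones. The sperm came from BALB/c-129-E mice, 8 to 12 weeks old. Native chromatin was digested with micrococcal nuclease and mononucleosomal DNA was precipitated with a rabbit antibody to TH2B (Sigma-Aldrich) or with one to TH2A from a RIKEN laboratory, and DNA without antibody served as Input. The eluates of 2 immunoprecipitations were combined into 1 library for either variant. No difference between them has a replicate check, therefore, and intervals cover counting error only, with the peaks taken as independent. Each list gives a peak by its first and last base without a height or p-value, and the depth behind a peak is unknown. Input over the arrays was not analysed here, so the background of these repeated units is unknown. The labels give about 30000000 unique read pairs of 150 bp for TH2B and Input and 34000000 for TH2A.

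Snhg14 is imprinted: it is expressed from the paternal chromosome, from the Snrpn side across the Snord116 array, the Ipw exons and the Snord115 array, and its far end runs antisense to Ube3a in neurons. Its introns are processed into C/D box snoRNAs, which as a class guide 2′-O-methylation of other RNAs. Snord116 lies in the interval whose paternal loss is linked to Prader-Willi syndrome, and Snord115 has a stretch complementary to a serotonin receptor transcript.

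In the RefSeq annotation of the region, 69 Snord116 copies ran from 59904848 down to 59673461 on the minus strand, 1 every 2528.5 bp (median). An unsequenced gap of 50000 bp (59807320 to 59857319) divided them into 19 copies on the 5′ side and 50 on the 3′ side. The 132 Snord115 copies followed from 59619095 to 59347173, 1 every 1871 bp. The reference comes from another strain than these mice, and the number of copies the mice carry was not measured.

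The sequences show how alike the units of an array are. The first pair are the stretches covered by peaks of both variants in the lists. The TH2B peak at the Snord116 copy Gm23265 and the TH2A peak at the Snord115 copy Gm26336 are those nearest the median width of the peaks in their array. All are given 5′ to 3′ on the minus strand, in the direction of Snhg14 transcription, with CpG dinucleotides in capitals.
TH2A and TH2B at Gm22046, chr7:59749118-59749302: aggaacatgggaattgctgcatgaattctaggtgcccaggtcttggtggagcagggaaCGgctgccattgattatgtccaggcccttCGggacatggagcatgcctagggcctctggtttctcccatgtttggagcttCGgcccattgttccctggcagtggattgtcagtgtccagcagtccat
TH2A and TH2B at Gm25210, central bases, chr7:59768502-59768801: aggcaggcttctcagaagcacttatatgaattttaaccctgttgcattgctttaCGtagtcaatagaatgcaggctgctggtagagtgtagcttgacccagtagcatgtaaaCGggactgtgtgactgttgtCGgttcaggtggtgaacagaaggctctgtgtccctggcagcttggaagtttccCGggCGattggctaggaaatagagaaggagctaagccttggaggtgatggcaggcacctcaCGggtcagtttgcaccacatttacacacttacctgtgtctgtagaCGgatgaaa
TH2B at Gm23265, chr7:59726292-59726507: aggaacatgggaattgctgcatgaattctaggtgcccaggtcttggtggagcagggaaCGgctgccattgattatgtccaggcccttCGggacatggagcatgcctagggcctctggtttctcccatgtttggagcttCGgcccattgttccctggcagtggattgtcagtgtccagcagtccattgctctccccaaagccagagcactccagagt
TH2A at Gm26336, chr7:59488296-59488495: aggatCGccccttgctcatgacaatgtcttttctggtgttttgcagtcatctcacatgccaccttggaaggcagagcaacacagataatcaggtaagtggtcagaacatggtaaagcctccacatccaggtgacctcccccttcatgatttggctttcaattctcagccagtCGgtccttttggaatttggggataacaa
The first 185 bases of the TH2B peak at Gm23265 were identical to the whole 185-base stretch at Gm22046, which lies in another copy of the unit. In the snoRNAs next to these peaks the C box (TGATGA) and the D box (CTGA), which bind the proteins of the snoRNA particle, are in capitals.
Gm23265 (Snord116), chr7:59726161-59726254: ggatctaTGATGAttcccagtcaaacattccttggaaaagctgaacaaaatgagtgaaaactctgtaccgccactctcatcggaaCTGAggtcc
Gm22046 (Snord116), chr7:59748956-59749049: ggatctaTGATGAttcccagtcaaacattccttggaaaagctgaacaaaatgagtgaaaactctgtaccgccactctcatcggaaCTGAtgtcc
Gm26336 (Snord115), chr7:59488689-59488767: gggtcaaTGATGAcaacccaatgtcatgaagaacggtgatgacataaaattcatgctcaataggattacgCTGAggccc
The Gm23265 sequence occurred in 28 of the 69 Snord116 copies. The Gm22046 sequence was shared by 4 copies, among them Gm25210. The Gm26336 sequence occurred in 3 of the 132 Snord115 copies.

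All 18 peaks lay inside the snoRNA arrays. The 8 TH2B peaks were all in the Snord116 array, and none was in the Snord115 array (0 of 8, exact 95% interval 0 to 36.9%). Of the 10 TH2A peaks, 7 were in the Snord116 array and 3 in the Snord115 array (30%, 6.67 to 65.2%). These intervals cover the counting of peaks in 1 library each and take the peaks as independent, which was not checked. Most of the Snord116 peaks are alike in sequence, so their independence is doubtful. The difference between the variants was not tested. No peak fell between the arrays or between Snord116 and Snrpn.

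As placed in the list, the TH2B peaks formed a compact group. They covered 58 kb, from 59713627 to 59771671, within Snord116 copies 34 to 57 counted from the 5′ end, all on the 3′ side of the gap. Each was at a different copy, and neighbouring peaks were 1 to 6 copies apart, with a median distance between centres of 8.33 kb (2.9 to 14.3 kb, 7 intervals). Over both arrays and across the gap, neighbouring TH2A peaks were a median of 15.9 kb apart (0.828 to 135 kb, 9 intervals). In the Snord116 array they ran over 153 kb, from 59733166 to 59886040, with 5 of the 7 on the 3′ side of the gap and 2 on the 5′ side. On the 3′ side, where all TH2B peaks lay, the 5 TH2A peaks covered 35.7 kb at a median of 9.31 kb (0.828 to 15.9 kb, 4 intervals). As placed in the lists, the wider spread of TH2A thus came from the peaks beyond the gap and in the Snord115 array. Of the peaks beyond the gap, that at Snord116l5 had 8 identical copies elsewhere in its array, over at least 80% of its length. That at Gm26433 had none. The copy to which the peak at Snord116l5 belongs is therefore uncertain.

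**Figure D1:**
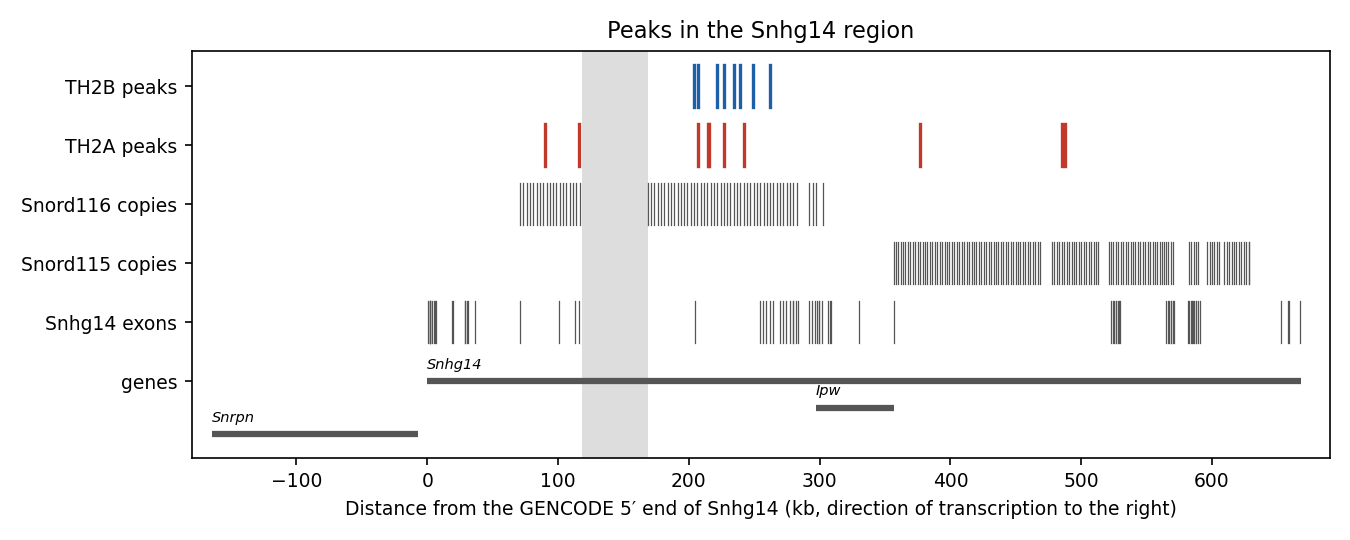
Position of the peaks along Snhg14, in kb from its 5′ end in the GENCODE annotation, with transcription to the right; each tick is a peak, a snoRNA copy or a Snhg14 exon, horizontal bars are genes and the grey band is the unsequenced gap. As placed in the lists, the 8 TH2B peaks sit together in the Snord116 array, while the 10 TH2A peaks reach both sides of the gap and the Snord115 array.

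Around the arrays both lists were empty. The nearest TH2B peaks outside the region were 7.67 Mb below and 3.92 Mb above it, and the nearest TH2A peaks were 49.3 and 3.93 Mb away. Of the TH2A peaks on chromosome 7, 10 of 12 were in these arrays (83.3%, exact 95% interval 51.6 to 97.9%), against 8 of 78 TH2B peaks (10.3%, 4.53 to 19.2%). The region, which makes up 0.584% of the chromosome, was chosen by the peak positions themselves. These shares are thus a description, and no enrichment of the region was tested. The outermost peaks were 188 kb or more inside its limits, so small shifts of these limits move no count.

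The Snord116 peaks were next placed by their centre relative to the 5′ end of the nearest snoRNA copy. The classes of position used here were set after the values were seen. Upstream of the snoRNA, within 300 bp, were 5 of 8 TH2B peaks and 1 of 7 TH2A peaks. The TH2B peaks of this class were centred 105 bp upstream of Gm22584 (59713627 to 59713833), 145.5 bp upstream of Gm23265 and 147.5 bp upstream of Gm23953 (59736444 to 59736663). The remaining upstream TH2B peaks were 173 bp from Gm22046 (59749118 to 59749326) and 269.5 bp from Gm25350 (59754145 to 59754584), the latter being the widest of the 18 at 440 bp. The TH2A peak of this class was centred 153.5 bp upstream of Gm22046 (59749103 to 59749302), on the TH2B peak there. These 6 peaks, at 5 copies of the unit, formed 1 group by sequence, in which peaks were joined when a near-identical copy of one (at least 95% identity over at least 80% of its length) covered at least 50% of another.

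A further class lay downstream of the snoRNA, at 500 to 750 bp, and held 2 of 8 TH2B and 3 of 7 TH2A peaks. The TH2B peaks were centred 575 bp downstream of Gm26032 (59740789 to 59740993) and 579 bp downstream of Gm25210 (59768486 to 59768818). The TH2A peaks were at 572 bp from Gm25210 (59768454 to 59768864), 591.5 bp from Gm23047 (59733166 to 59733377) and 710.5 bp from Gm25471 (59760825 to 59761048). These 5 peaks, at 4 copies of the unit, also formed 1 group by sequence. Together, the upstream and the downstream position took 11 of the 15 Snord116 peaks. The limits were drawn after the values were seen, so this count is a description. Peaks at like positions of a tandem unit are alike in sequence, so the groups by sequence add no separate support.

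The other 4 Snord116 peaks joined no further peak by sequence. The TH2B peak at LOC115486763 (59771439 to 59771671) was centred 194 bp downstream of the snoRNA's 5′ end and reached 16 bp into the snoRNA. It was the only one of the 18 to touch a RefSeq snoRNA copy. Over the genome, by the snoRNA genes of GENCODE, 0.17% of all TH2B peaks and 0% of all TH2A peaks overlapped one. The TH2A peaks were 989.5 bp upstream of Gm23313 (59760009 to 59760208), 573 bp upstream of Gm26433 (59859769 to 59859991) and 1213 bp downstream of Snord116l5 (59885834 to 59886040). Thus 1 of 8 TH2B and 3 of 7 TH2A peaks of this array were outside these positions, and this difference was not tested.

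**Figure D2:**
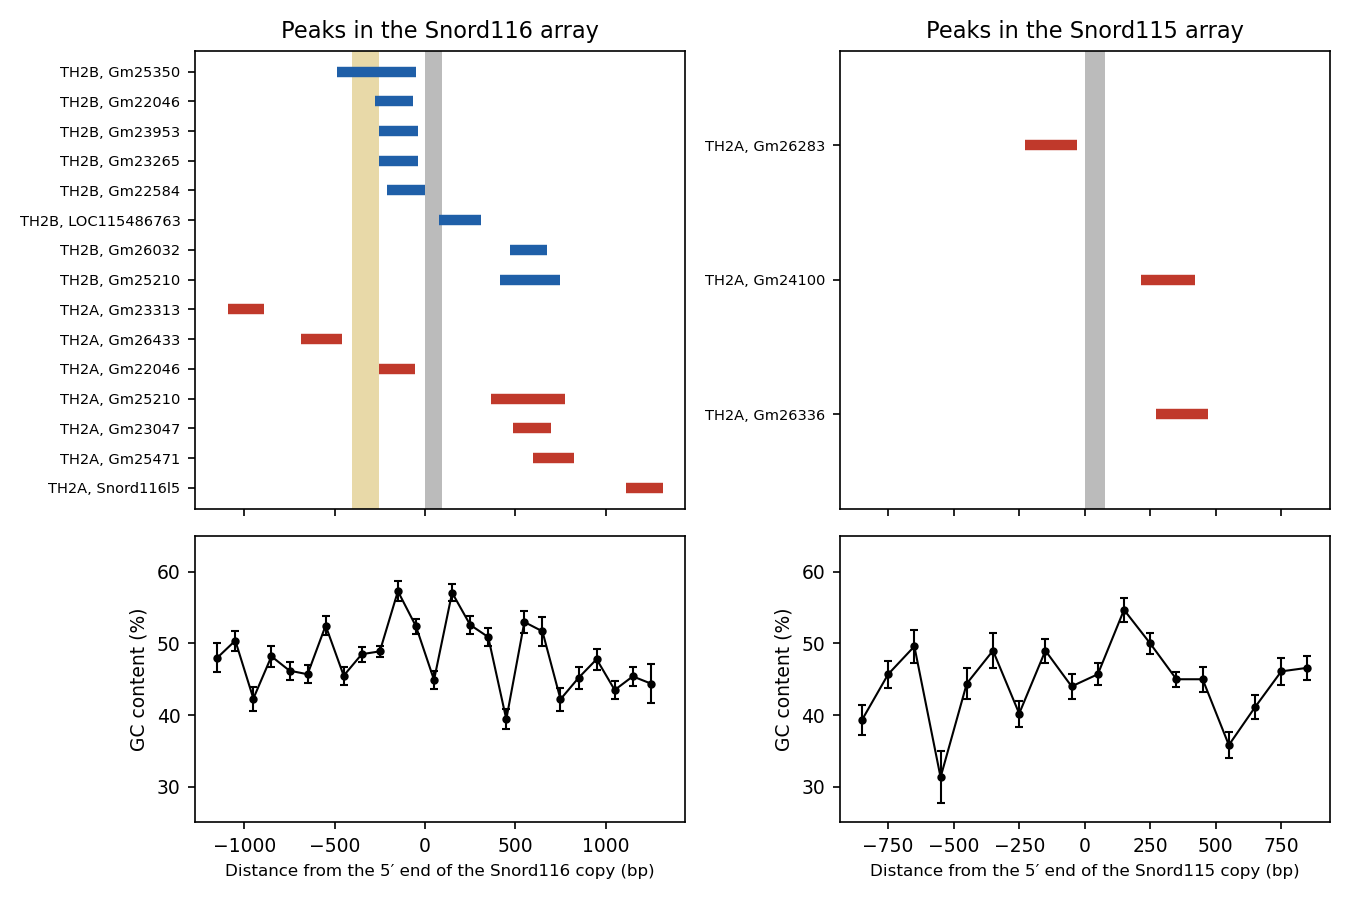
Upper panels: each peak as a bar, TH2B in blue and TH2A in red, at its distance in bp from the 5′ end of the nearest Snord116 (left) or Snord115 copy (right), with upstream negative; the grey band is the snoRNA and the tan band (left) the median place of the Snhg14 exon. Lower panels: GC content in 100-bp bins, as the mean over all copies with SD. Of the 8 TH2B bars 5 are centred within 300 bp upstream of the Snord116 snoRNA, and GC content has maxima on both sides of it, 57.3% upstream and 57.1% downstream.

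In the Snord115 array, the TH2A peak at Gm26336 was centred 371.5 bp downstream of the snoRNA's 5′ end. The peak at Gm24100 (59598563 to 59598769) was centred 316 bp downstream and joined it by sequence, although Gm26336 is copy 67 and Gm24100 copy 12 from the 5′ end. The peak at Gm26283 (59490667 to 59490866), in the unit next to Gm26336, was centred 127.5 bp upstream and joined neither.

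With respect to Snhg14 itself, nearly all peaks were intronic. In GENCODE, which gives the gene 75 exons, the TH2B peak at LOC115486763 and the TH2A peak at Gm26433 lay wholly within an exon (233 and 223 bp), and the other 16 were in introns. In RefSeq, with 172 exons, neither of them was exonic, and the TH2B peak at Gm22046 overlapped an exon by 21 bp. A RefSeq exon was annotated within 600 bp upstream of 60 of the 69 Snord116 copies, at a median of 403 to 257 bp before the snoRNA. Among the TH2B peaks, those at Gm25350, Gm22046 and Gm23953 reached this interval, the last by its end base. Which peaks were exonic therefore depended on the annotation used.

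Base composition varied along the Snord116 unit and among the peaks on it. Over the 69 copies, GC content was highest 200 to 100 bp upstream of the snoRNA (57.3% ± 1.39, SD over copies), alike within the SD 100 to 200 bp downstream of its 5′ end (57.1% ± 1.2), and lowest 400 to 500 bp downstream (39.4% ± 1.38). The TH2B peaks had a GC content of 49.2 to 56.5% (median 53.9%) and 3 to 8 CpG. The TH2A peaks of the same array had 43.5 to 55.5% (median 48.9%) and 0 to 8 CpG, and the ranges overlap. The 3 TH2A peaks of the Snord115 array had 47 to 48.3% and 1 or 2 CpG.

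The peaks were narrow. TH2B peaks were 205 to 440 bp wide (median 218 bp, 236 bp for the whole list) and TH2A peaks 200 to 411 bp (median 207 bp, 256 bp for the whole list). A width of 200 bp, the lowest in either list, was found for 4 of 10 TH2A peaks, against 9.52% of all TH2A peaks. For TH2B it was found for 0 of 8, against 16.1% of all TH2B peaks. The TH2B peaks covered 2063 bp in all and the TH2A peaks 2284 bp.

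In the lists, the variants met at 2 places. At Gm22046 the peaks overlapped by 185 bp, which is 88.5% of the TH2B and 92.5% of the TH2A peak. At Gm25210 the whole TH2B peak of 333 bp lay inside the TH2A peak and made up 81% of it. Thus 2 of 8 TH2B peaks were shared (25%, exact 95% interval 3.19 to 65.1%), against 5.68% of all TH2B peaks. For TH2A, 2 of 10 were shared (20%, 2.52 to 55.6%), against 31.9% of all TH2A peaks. Among the unshared peaks, TH2B peaks were 2.57 to 19.3 kb from the nearest TH2A peak. Unshared TH2A peaks of the Snord116 array were 3.07 to 114 kb from a TH2B peak.

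Every peak had many near-identical copies elsewhere in the genome, by the same measure of 95% identity over 80% of the peak. All 18 had 50 or more, against 5.88% of all TH2B and 5.85% of all TH2A peaks on the assembled chromosomes. TH2B peaks had 52 to 69 such copies, Snord116 TH2A peaks 60 to 69 and Snord115 TH2A peaks 118 to 127. All of these copies were in the array of the peak itself. Among the other TH2A peaks, 1 of 178 had as many (0.562%, exact 95% interval 0.0142 to 3.09%), and among the other TH2B peaks 59 of 1132 (5.21%, 3.99 to 6.67%). A near-identical copy of any number was found for 24.9% of all TH2B and 68.1% of all TH2A peaks. RefSeq labels 69 Snord116 and 132 Snord115 copies, and each array also holds at least 1 snoRNA without such a label (Gm26504 and Gm24027). Counts of 50 or more thus come with a place in an array. These comparisons describe that place and were not tested.

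A copy identical over at least 80% of the peak existed for 3 of the 8 TH2B and 3 of the 10 TH2A peaks. The shares of the lists, on the assembled chromosomes, were 8.25% and 21.3%. Identity over the full length was not required. The TH2A peaks at Gm22046 and Snord116l5 each had 8 identical copies, and the TH2B peak at Gm23953 had 6. To compare with the read length, each peak was also divided into all overlapping stretches of 150 bases. In 8 of the 18 every stretch had an exact second copy, among them 5 TH2B and 3 TH2A peaks. In 3 peaks no stretch had one, namely the TH2B peak at Gm22584 and the TH2A peaks at Gm23047 and Gm24100. In the remaining 7 the share of repeated stretches was 47.1 to 87.8%.

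Few of the near-identical copies of a peak carried a peak of their own. For the TH2A peak at Gm22046, 3 of 69 copies did, and of its 8 identical copies 2 did. For the TH2B peak at Gm25350, 4 of 67 copies did, the highest number of all. For Snord116l5 none of 66 did. How reads with several equally good positions were placed is not given in the sources used here. Where a stretch is repeated exactly, the copy to which a peak is assigned cannot be told apart from the others, and counts of copies with a peak are counts of places in the list.

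**Figure D3:**
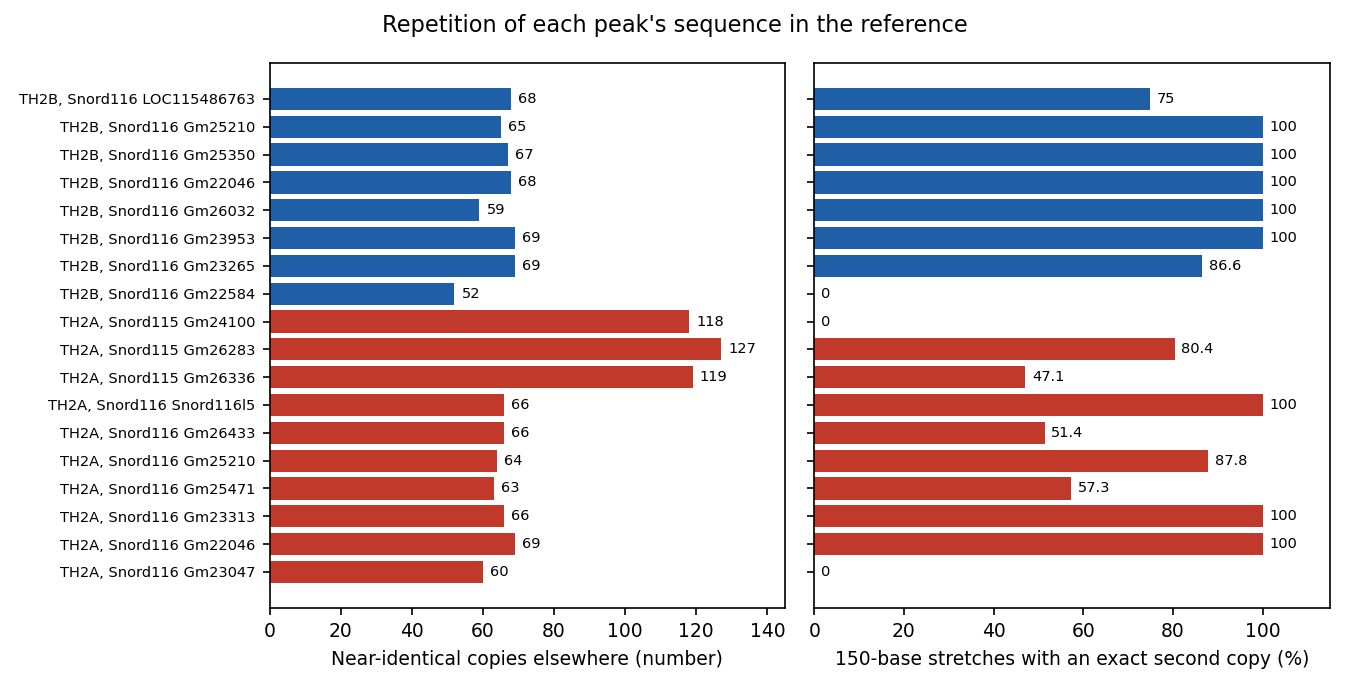
Number of near-identical copies of each peak elsewhere in the genome (left) and percentage of its 150-base stretches that have an exact second copy (right), with TH2B in blue and TH2A in red and each bar named by array and nearest snoRNA. The Snord115 peaks have 118 to 127 copies and the Snord116 peaks 52 to 69, and 8 bars on the right reach 100%.

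The other genes looked up in the imprinted domain had no peak of either variant inside them or up to 5 kb away. This held for 14 genes of the domain and its neighbours and for Ipw, a noncoding transcript whose RefSeq span runs from between the arrays into the 3′ end of the Snord116 array and whose nearest peaks were 0.0347 Mb (TH2B) and 0.0204 Mb (TH2A) away. Snrpn, which encodes a spliceosome protein and carries the imprinting centre at its promoter, was 0.211 Mb from a TH2B and 0.0965 Mb from a TH2A peak. Ube3a, the maternally expressed ubiquitin ligase of Angelman syndrome, was at 0.402 and 0.177 Mb. Snurf, Snord64 and Snord107 were at 0.207 Mb or more for TH2B and 0.0928 Mb or more for TH2A. The paternally expressed genes Ndn, Magel2, Mkrn3 and Peg12 were 1.61 to 1.73 Mb from the nearest peaks, which were those above the region. Among the neighbours Atp10a, Gabra5, Gabrg3, Oca2 and Herc2, Atp10a was nearest, at 0.884 Mb for TH2B and 0.659 Mb for TH2A. The peaks of this domain were thus limited to the snoRNA arrays in both lists, 233 kb (TH2B) and 119 kb (TH2A) from the Snrpn start shared with Snurf.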

How the data were processed

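Of 3 mouse sperm samples, the TH2B and TH2A ChIP libraries (1 each) were used. Input, the control of the peak calls, was not analysed on its own. The authors used Trimmomatic 0.36 for trimming, BWA MEM for alignment to mm10 and MACS2 2.1.3 for peaks over Input, with a p-value limit of 0.05. They deposited peak positions in bp, whose unit is no score, signal or count. Treatment of reads with several positions is not given in the sources used here.

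Genes and Snhg14 exons were taken from GENCODE M21, snoRNA copies from RefSeq and sequence from GRCm38.p6. Overlap meant at least 1 bp. Copies were found with BLAST 2.17.0 (megablast, word size 28). Intervals are exact binomial (scipy 1.17.1, Python 3.11, pysam 0.24.0, matplotlib 3.10.9). With 1 library per variant no test was made. Every peak of the region was named, with genes of the imprinted domain (1 of those planned is not reported here) and the Meg3, Rian and Mirg cluster. Members and lists were chosen with earlier results of these data known. On simulated data, the answer was right in 200 of 200 overlap, 200 of 200 offset and 40 of 40 copy cases. Some of these cases held no overlap or no near-identical copy to find. The tissue label could not be checked against markers, since positions hold no expression values. Alternatives covered merging, array limits, overlap rules, identity and exon annotation.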

Additional observations from a re-analysis of the deposited data

How the results depend on the processing

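Of 30 alternatives to 15 results, 25 left the value within the limits set for a change and 5 moved it. TH2B peaks on a snoRNA copy went from 1 to 0 when the peak centre had to be inside the gene, and to 8 when a distance of up to 500 bp counted. TH2A peaks on a snoRNA copy went from 0 to 7 at the same distance. TH2A peaks on a Snhg14 exon went from 1 to 0 with RefSeq exons, an alternative chosen after seeing the data, and with those exons the TH2B count stayed at 1 but for a different peak. Merging peaks less than 1000 bp apart left 9 TH2A peaks and a median spacing of 20994 bp in place of 15931 bp. Both changes, though the spacing grew, were counted as within the limits. On the 3′ side of the gap in the Snord116 array alone, also chosen after seeing the data, the TH2A spacing was 9314 bp. This was counted as moved. The TH2B spacing stayed at 8331 bp under either choice. At 98% identity 7 of 8 TH2B peaks had a copy. A stricter score could not be applied, since the lists hold none. No paired analysis was possible because each variant has 1 library and no result comes from a test. The small number of peaks limits every comparison between the variants.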

Other observations

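The Meg3, Rian and Mirg cluster on chromosome 12 is another imprinted domain whose long noncoding RNAs hold tandem C/D box snoRNAs (Snord113 and Snord114), there expressed from the maternal chromosome. No peak of either variant lay between Meg3 and Mirg, where 23 snoRNA genes were annotated, and none was within 5 kb of the 3 genes. The nearest TH2B peak was 0.088 Mb from Meg3 and the nearest TH2A peak 5.85 Mb from Mirg. Over the genome, 2 of 1507 snoRNA genes of GENCODE were overlapped by a TH2B peak, 1 of them in the Snord116 array, and none by a TH2A peak.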
